A study of Mus musculus with 6 samples.

Results

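Histone deacetylase genes were followed in sorted mature CD8 thymocytes of mice that lack Tcf1, or Tcf1 and Lef1. The members are the rows named Hdac1, Hdac2, Hdac3, Hdac4, Hdac5, Hdac6, Hdac7, Hdac8, Hdac10 and Hdac11, chosen by symbol, which makes 10 of the 16383 genes listed in the deposited table. The study has 3 genotypes with 2 libraries each: Tcf1-/-Lef1-/- cells (DKO), Tcf1-/- cells (Tcf1 KO) and wild type cells (WT). The design text says that both factors were removed with CD4-Cre, which acts in cells that have begun to express CD4. Whether the Tcf1-/- animals carry the same conditional alleles and Cre, and whether WT animals carry Cre, is not given in the sources used here, and neither are the age of the mice and whether animals were pooled. All libraries are total RNA from thymocytes sorted as high for TCRβ and positive for CD8, without CD69 or CD24.

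Histone deacetylases remove acetyl groups from lysines of histones and other proteins, and deacetylated histones are associated with silent chromatin. Class I enzymes (Hdac1, Hdac2, Hdac3 and Hdac8) are mostly nuclear, and all but Hdac8 act as catalytic subunits of co-repressor complexes. Class IIa proteins (Hdac4, Hdac5 and Hdac7) have little deacetylase activity of their own, bind MEF2 transcription factors and leave the nucleus when they are phosphorylated. In thymocytes Hdac7 is known to be exported from the nucleus after T cell receptor signalling. Tcf1, the product of Tcf7, and its relative Lef1 bind DNA through an HMG box and are needed for normal T cell development. A study of CD8 T cells has reported deacetylase activity in these factors themselves, and the present comparison asks how transcripts of the classical enzymes stood when the factors were missing.

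Values are FPKM (fragments per kilobase of transcript and per unit of library size), so levels can be set side by side between genes. The table gives no read counts. From the spacing of low values in short transcripts the libraries were put at roughly 52250000 to 60500000 fragments, at which 1 FPKM on a 2 kb transcript stands for about 104 to 121 fragments. Log2 changes were taken of FPKM + 1 and are given ± their standard error. The p-values are from limma over all 6761 genes with at least 1 FPKM in at least 2 libraries, with Benjamini-Hochberg adjustment and a threshold of 0.05. Means carry the SD over n = 2 libraries. The labels leave unsaid whether each library is a mouse of its own. The p-values therefore describe the scatter among these libraries only, and that scatter may be technical. Lef1, the targeted gene that could be checked, had 130.92 and 130.23 FPKM in DKO, 308.74 and 311.52 FPKM in Tcf1 KO, and 316.10 and 281.86 FPKM in WT. It fell by 1.19 on the log2 scale in DKO against WT (adjusted p = 0.000157); how many of its reads lie in the deleted part is not known from FPKM. Cd8a, which defines the sorted lineage, was at 516.44 to 656.05 FPKM in every library, whereas Cd4 was at 128.95 and 63.72 FPKM in DKO, 15.06 and 6.27 FPKM in Tcf1 KO, and 1.41 and 0.65 FPKM in WT. Cd69, a marker the sort selected against, was still at 27.22 and 27.11 FPKM in DKO, 33.22 and 31.63 FPKM in Tcf1 KO, and 39.41 and 35.96 FPKM in WT. In bulk samples, fewer cells of a type and less RNA per cell cannot be told apart.

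The family covers a wide range of levels. Hdac7 was the most abundant member in all 3 genotypes, followed by Hdac1, Hdac2 and Hdac3. Averaged over the 6 libraries, Hdac7 stood above 97.1% and Hdac1 above 94.0% of the tested genes. Hdac5 and Hdac4 were of intermediate level, and Hdac10, Hdac8 and Hdac6 were below the middle of the tested genes, at percentiles 35.5, 35.3 and 28.8. Hdac11, the single class IV gene, was the lowest member: it had 0.39 and 0.75 FPKM in DKO, 1.01 and 0.62 FPKM in Tcf1 KO, and 0.46 and 0.54 FPKM in WT. It did not pass the expression filter, so 9 of 10 members were tested. Hdac9, the class IIa gene that is not among the members, was at 0.49 and 0.13 FPKM in DKO, 0.15 and 0.07 FPKM in Tcf1 KO, and 0.15 and 0.20 FPKM in WT.

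The order of the members was the same in DKO and WT from the first to the sixth place: Hdac7, Hdac1, Hdac2, Hdac3, Hdac5 and Hdac4. In Tcf1 KO Hdac4 stood above Hdac5. Hdac10 stood above Hdac8 in Tcf1 KO and WT, and below it in DKO. Neighbours in this order had library values that did not overlap within a genotype, with the exception of Hdac10 and Hdac8 in Tcf1 KO.

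**Figure D1:**
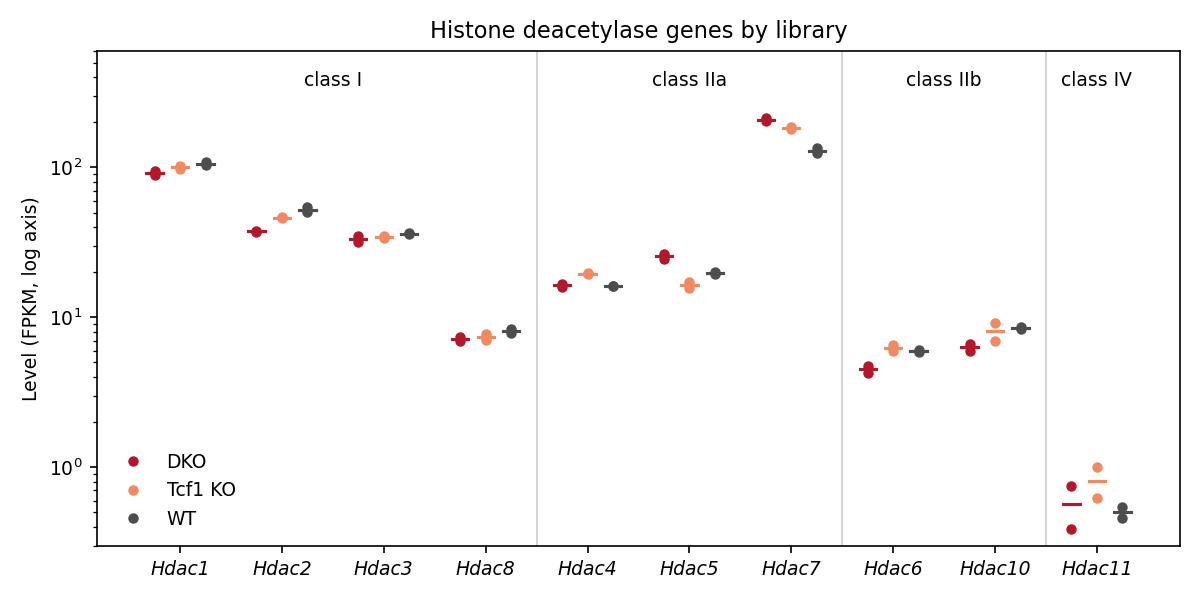
Level of each member in each library (points, FPKM on a log axis) with the mean of the 2 libraries (short horizontal lines), grouped by class; within a gene, DKO, Tcf1 KO and WT run from left to right. Hdac7 is the highest member throughout and higher in both mutants, Hdac1 and Hdac2 have their lowest values in DKO, and Hdac5 is lowest in Tcf1 KO and highest in DKO.

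The sequences upstream of Hdac2, Hdac5 and Hdac7 are shown because these 3 members had the largest moderated t statistics in DKO against WT. RefSeq's promoter table (GRCm38.p6) matched 7 of the 10 members, and the 250 bases before the start are printed 5′ to 3′, with GC boxes (GGGCGG or its reverse complement CCGCCC) and CCAAT boxes (CCAAT or ATTGG) in capitals. The window of Hdac2 is chr10:36974294-36974543 (plus strand), that of Hdac5 is chr11:102230173-102230422 (minus strand), and that of Hdac7 is chr15:97831768-97832017 (minus strand), 1 of 4 windows listed for this gene, picked after all were seen. The deposited values were made on mm9, so these positions are not those of the authors' build.
Hdac2: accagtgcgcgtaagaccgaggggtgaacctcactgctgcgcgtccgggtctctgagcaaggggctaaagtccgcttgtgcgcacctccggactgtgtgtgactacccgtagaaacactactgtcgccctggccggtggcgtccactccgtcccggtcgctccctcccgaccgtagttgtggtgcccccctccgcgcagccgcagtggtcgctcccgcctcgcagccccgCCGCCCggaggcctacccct
Hdac5: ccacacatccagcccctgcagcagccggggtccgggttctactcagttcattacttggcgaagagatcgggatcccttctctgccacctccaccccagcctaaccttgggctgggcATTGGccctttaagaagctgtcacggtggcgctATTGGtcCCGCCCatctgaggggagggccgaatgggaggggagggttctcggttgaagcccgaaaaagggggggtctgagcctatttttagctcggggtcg
Hdac7: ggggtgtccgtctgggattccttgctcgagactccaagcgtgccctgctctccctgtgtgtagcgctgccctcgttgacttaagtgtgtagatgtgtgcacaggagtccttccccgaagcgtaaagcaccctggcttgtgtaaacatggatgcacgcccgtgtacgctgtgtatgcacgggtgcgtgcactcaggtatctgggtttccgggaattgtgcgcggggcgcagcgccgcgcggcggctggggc
The printed windows hold 27 (Hdac2), 12 (Hdac5) and 21 (Hdac7) CpG dinucleotides, beside a median of 6 over the 32851 windows of the table. Hdac2 and Hdac5 have 1 GC box each, Hdac5 has 2 CCAAT boxes, and the printed window of Hdac7 has neither motif. The other 3 Hdac7 windows hold 5, 25 and 6 CpG, and the one with 25 has a GC box. A GC box was present in 32.7% and a CCAAT box in 33.8% of all windows. The core of the Tcf and Lef recognition sequence, CTTTGA or its reverse complement TCAAAG, was found in 13.8% of all windows and in none of the 10 windows of the 7 matched members, which says only that these letters are not in these stretches.

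DKO cells were first set against WT cells. Of the 9 tested members, 2 were higher in DKO (Hdac7 and Hdac5) and 3 were lower (Hdac2, Hdac1 and Hdac6), whereas 4 did not pass the test. Changes were common in this comparison: 49.5% of all tested genes were called, 21.7% as higher and 27.8% as lower, so 5 of 9 is near the background. The balance of directions over all genes depended on the scaling: 1465 were higher and 1880 lower as deposited, whereas median scaling gave 1781 higher and 1617 lower genes and quantile scaling gave 1817 higher and 1626 lower. With either WT library omitted 2 members passed, Hdac2 and Hdac7. The 2 groups of libraries did not overlap for 2 members with higher and 6 with lower values in DKO, beside 77.4% of all tested genes (36% higher and 41.4% lower). The members' median log2 change was -0.16, beside -0.03 over all tested genes.

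Hdac1, a class I catalytic subunit of several nuclear co-repressor complexes, had 94.29 and 88.54 FPKM in DKO, 102.09 and 97.86 FPKM in Tcf1 KO, and 107.99 and 104.05 FPKM in WT. Its 3 genotypes did not overlap, with DKO lowest and WT highest. Hdac1 fell by 0.21 ± 0.05 in DKO against WT (adjusted p = 0.0204), a difference of -13.8% between the mean FPKM, and a smaller absolute change was seen in 39.9% of the tested genes. It no longer passed under median scaling of the libraries (-0.16, adjusted p = 0.0949), with the filter on low values dropped (0.0681), or with DKO replicate 2 (0.0651), WT replicate 1 (0.114) or WT replicate 2 (0.0675) omitted.

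Hdac2, the close paralog of Hdac1 that occupies the same complexes, had 37.19 and 37.79 FPKM in DKO, 46.11 and 46.44 FPKM in Tcf1 KO, and 50.54 and 54.20 FPKM in WT. Here too all 3 genotypes were apart, and the libraries of each mutant lay close together. Hdac2 fell by 0.47 ± 0.05 in DKO against WT (adjusted p = 0.00111), or -28.4% between the means, and the call held under all 15 alternatives. Across the libraries the ratio of Hdac1 to Hdac2 was 2.54 and 2.34 in DKO, 2.21 and 2.11 in Tcf1 KO, and 2.14 and 1.92 in WT.

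Hdac3, the enzyme of the NCoR and SMRT complexes, had 32.02 and 34.93 FPKM in DKO, 34.00 and 34.75 FPKM in Tcf1 KO, and 36.45 and 35.87 FPKM in WT. Its DKO libraries lay below both WT libraries, but the log2 difference of -0.11 ± 0.06 did not pass the test (adjusted p = 0.167). Hdac8, a class I enzyme that works outside those complexes, had 6.94 and 7.35 FPKM in DKO, 7.04 and 7.80 FPKM in Tcf1 KO, and 8.30 and 7.85 FPKM in WT. Its difference of -0.16 ± 0.08 against WT did not pass either (adjusted p = 0.158), and it was -0.10 under median and -0.05 under quantile scaling. All 4 class I genes thus had lower values in both DKO libraries than in both WT libraries, which was true of 41.4% of all tested genes.

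Genes of cell division were lower beside the class I genes. All 16 members of the cell cycle list fell in DKO against WT, where 27.8% of all tested genes were called lower. Their median log2 change was -2.51. The summed level of the list ranged from 168 to 172 FPKM in DKO, 360 to 455 FPKM in Tcf1 KO, and 641 to 646 FPKM in WT. The largest of these falls were in the proliferation marker Mki67 (-4.66 ± 0.23) and the cyclins Ccna2 (-4.20 ± 0.21) and Ccnb2 (-4.19 ± 0.20). Mcm6, of the replicative helicase, was the most abundant of the list in WT and fell by 0.85 ± 0.08 in DKO. The part of this shift in the Hdac1 and Hdac2 values was not tested.

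Among the class IIa genes, Hdac7 had 203.04 and 212.48 FPKM in DKO, 184.76 and 181.25 FPKM in Tcf1 KO, and 125.11 and 134.12 FPKM in WT. All 3 genotypes were apart, with DKO highest and WT lowest. Hdac7 rose by 0.68 ± 0.05 in DKO against WT (adjusted p = 0.000369), which is 60.3% between the mean FPKM. The call held under all 15 alternatives, and 82.4% of the tested genes had a smaller absolute change. The ratio of Hdac7 to Hdac1 was 2.15 and 2.40 in DKO, 1.81 and 1.85 in Tcf1 KO, and 1.16 and 1.29 in WT.

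Hdac5, a class IIa partner of MEF2 factors known from muscle and heart, had 26.59 and 24.37 FPKM in DKO, 15.73 and 17.32 FPKM in Tcf1 KO, and 19.58 and 20.14 FPKM in WT. Its DKO libraries were the highest and its Tcf1 KO libraries the lowest, with WT between them and no overlap. Hdac5 rose by 0.34 ± 0.07 in DKO against WT (adjusted p = 0.0115). It no longer passed with WT replicate 1 (adjusted p = 0.0719) or WT replicate 2 (0.0569) omitted, or with the filter dropped (0.0571). Hdac4, its close relative, had 15.86 and 16.78 FPKM in DKO, 19.35 and 19.80 FPKM in Tcf1 KO, and 16.14 and 16.17 FPKM in WT, and differed between DKO and WT by 0.01 ± 0.06 (adjusted p = 0.864).

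Markers of other cells were set beside Hdac5, since a few had the same order of genotypes. Of all tested genes, 21.7% were called higher and 27.8% lower in DKO against WT, and 1.33% higher in Tcf1 KO against WT. The summed level of the B cell list was 23.1 to 26.3 FPKM in DKO, 15.4 to 17.2 FPKM in Tcf1 KO, and 19.3 to 20.4 FPKM in WT, with 1 of 2 tested members higher in DKO than in WT. Nearly all of it was Cd79b, while the defining B cell marker Ms4a1 did not exceed 0.01 FPKM. The erythroid list summed to 16.6 to 18.1 FPKM in DKO, 5.75 to 5.93 FPKM in Tcf1 KO, and 10.4 to 10.5 FPKM in WT, mostly from Car2, with Alas2, the heme synthesis enzyme of red cell precursors, at 0.26 FPKM or less. The part of these lists in the Hdac5 values was not tested. The thymic stroma list summed to 3.75 to 4.39 FPKM in DKO, 2.10 to 2.66 FPKM in Tcf1 KO, and 2.04 to 2.25 FPKM in WT, with both tested members (Epcam and Cdh5) higher in DKO. Of its untested members, Krt5 and Krt8 did not exceed 0.04 FPKM. Col1a1 was lower in DKO (0.195 ± 0.00707 FPKM) than in WT (0.365 ± 0.12 FPKM). The myeloid list summed to 1.24 to 2.08 FPKM in DKO, 1.44 to 1.80 FPKM in Tcf1 KO, and 1.30 to 1.38 FPKM in WT, with no member called in DKO against WT, and Cd14 and the NK cell marker Ncr1 were listed at 0. Of 4 genes that mark immature double-positive thymocytes, 3 were higher in DKO and 4 in Tcf1 KO against WT, with sums of 278 to 296 FPKM in DKO, 213 to 238 FPKM in Tcf1 KO, and 131 to 135 FPKM in WT. This sum is nearly all Ccr9 and has the order of Hdac7, whereas Dntt was at 9.77 ± 0.573 FPKM in DKO, 26.4 ± 2.74 FPKM in Tcf1 KO, and 8.56 ± 0.757 FPKM in WT. The list of gated-out or other T lineage genes (2 of 4 higher and 1 lower in DKO against WT) summed to 124 to 175 FPKM in DKO, 43.2 to 55.3 FPKM in Tcf1 KO, and 40.2 to 45.2 FPKM in WT. Most of its DKO sum was Cd4 (96.3 ± 46.1 FPKM). Most of its WT sum was Cd69 (37.7 ± 2.44 FPKM), which was lower in DKO (27.2 ± 0.0778 FPKM). The list also holds Foxp3, the factor of regulatory T cells, at 21.7 ± 11.9 FPKM in DKO, 2.6 ± 0.106 FPKM in Tcf1 KO, and 1.08 ± 0.163 FPKM in WT. The NK list summed to 190 to 205 FPKM in DKO, 73.3 to 85.7 FPKM in Tcf1 KO, and 26.5 FPKM in both WT libraries, with 1 of 2 tested members higher and 1 lower in DKO against WT. The higher one, Il18r1, made up most of the DKO sum, whereas Cd160 was at 1.53 ± 0.163 FPKM in DKO, 28.6 ± 1.38 FPKM in Tcf1 KO, and 16.1 ± 1.07 FPKM in WT and made up most of the WT sum. The part of these lists in the Hdac7 values was not tested. Of 6 T cell and CD8 genes 2 were higher and 2 lower in DKO against WT, with sums of 3574 to 3779 FPKM in DKO, 3556 to 3712 FPKM in Tcf1 KO, and 3068 to 3313 FPKM in WT.

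Class IIb holds Hdac6, a cytoplasmic deacetylase of tubulin, and Hdac10, which deacetylates polyamines. Hdac6 had 4.27 and 4.73 FPKM in DKO, 6.55 and 5.99 FPKM in Tcf1 KO, and 6.06 and 5.89 FPKM in WT. Only its DKO libraries stood apart, below all others. Hdac6 fell by 0.34 ± 0.09 in DKO against WT (adjusted p = 0.02). It no longer passed under quantile scaling (-0.18, adjusted p = 0.105), with the filter dropped (0.0532), or with DKO replicate 1 (0.0699), WT replicate 1 (0.111) or WT replicate 2 (0.093) omitted. Hdac10 had 6.67 and 5.92 FPKM in DKO, 9.18 and 6.94 FPKM in Tcf1 KO, and 8.62 and 8.40 FPKM in WT. Its Tcf1 KO libraries were the farthest apart of any tested member, by 0.36 on the log2 scale. The difference of -0.38 ± 0.13 between DKO and WT did not pass (adjusted p = 0.0557), and it passed in the fit of these 4 libraries alone (0.0219) or with Tcf1 KO replicate 1 (0.0219) or Tcf1 KO replicate 2 (0.0214) omitted. Hdac11 overlapped between DKO and WT at its low level; without the filter its log2 difference was 0.06 ± 0.17 (adjusted p = 1).

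With Tcf1 alone lost, 1 of the 9 tested members passed the test, Hdac7. The unadjusted limma p was under 0.05 for 4 members, and the share of all tested genes with such a p was not counted. Of these 4, Hdac2 had the highest unadjusted limma p (0.0165), at rank 830 of the 6761 tested genes. By adjusted p, 2.09% of all tested genes were called in this comparison with WT, 1.33% as higher and 0.754% as lower. The 90 higher and 51 lower genes became 43 higher and 91 lower with Tcf1 KO replicate 1 omitted, and 33 and 36 with the filter dropped. Hdac7 rose by 0.50 ± 0.05 in Tcf1 KO (adjusted p = 0.0167), 41.2% between the mean FPKM, and 92.6% of the tested genes had a smaller absolute change. It no longer passed with Tcf1 KO replicate 1 (0.0589), Tcf1 KO replicate 2 (0.111), WT replicate 1 (0.147) or WT replicate 2 (0.0889) omitted, or with the filter dropped (0.0995), while the log2 change over all alternatives stayed between 0.45 and 0.54. In the same comparison 5 of the 16 cell cycle genes fell, including Mcm5 (-0.69 ± 0.08), Mcm2 (-0.57 ± 0.09) and Ccne1 (-0.56 ± 0.06), which encode parts of the replicative helicase and a cyclin. These 3 no longer passed with WT replicate 1 (0.171 to 0.231), WT replicate 2 (0.194 to 0.286) or Tcf1 KO replicate 2 (0.0697 to 0.149) omitted, or with the filter dropped (0.0554 to 0.228), and Mcm2 missed under 5 further alternatives (0.0505 to 0.0672).

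The other members did not pass in Tcf1 KO against WT. Hdac4 came nearest, with both Tcf1 KO libraries above both WT libraries and a log2 difference of 0.26 ± 0.06 (adjusted p = 0.0762, unadjusted p = 0.00401). Hdac5 had its Tcf1 KO libraries below WT, at -0.25 ± 0.07 (adjusted p = 0.127). Hdac2 was at -0.17 ± 0.05 (adjusted p = 0.134) and Hdac1 at -0.08 ± 0.05 (0.442), both without overlap of the libraries. Hdac3 (-0.07 ± 0.06, adjusted p = 0.549) and Hdac8 (-0.11 ± 0.08, 0.509) also had lower values in both Tcf1 KO libraries. Hdac6 and Hdac10 overlapped between Tcf1 KO and WT, with differences of 0.06 ± 0.09 and -0.08 ± 0.13. Hdac11 had both Tcf1 KO libraries above WT at these low levels, and without the filter the difference was 0.27 ± 0.17 (adjusted p = 0.839). Among the tested members, which leave out Hdac11, libraries did not overlap for 2 with higher and 5 with lower values in Tcf1 KO. This stands beside 55.8% of all tested genes (25.8% higher and 30% lower).

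DKO and Tcf1 KO were then compared directly, which, by their labels, differ in Lef1. Of the 9 tested members 2 were higher in DKO (Hdac5 and Hdac7) and 3 lower (Hdac2, Hdac4 and Hdac6), where 38.4% of all tested genes were called, 15.9% as higher and 22.6% as lower. As deposited 1072 genes were higher and 1527 lower, whereas median scaling gave 1312 higher and 1271 lower genes and quantile scaling gave 1331 higher and 1302 lower. With DKO replicate 1 or Tcf1 KO replicate 1 omitted 2 members passed, and with either WT library omitted 3 passed. Libraries did not overlap for 2 members with higher and 5 with lower values in DKO, beside 69.1% of all tested genes (31.2% higher and 37.9% lower). Hdac5 rose by 0.60 ± 0.07 (adjusted p = 0.00255), the largest of the members' changes here, with means of 25.5 ± 1.57 FPKM in DKO and 16.5 ± 1.12 FPKM in Tcf1 KO. Hdac2 fell by 0.30 ± 0.05 (adjusted p = 0.00828). Both calls held under all 15 alternatives. Hdac6 fell by 0.40 ± 0.09 (adjusted p = 0.0156), which no longer passed with DKO replicate 1 (0.0529) or Tcf1 KO replicate 1 (0.0771) omitted, or with the filter dropped (0.0528).

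Hdac4 fell by 0.25 ± 0.06 in DKO against Tcf1 KO (adjusted p = 0.0191), and its DKO mean of 16.3 ± 0.651 FPKM was close to the WT mean of 16.2 ± 0.0212 FPKM. It no longer passed in the fit of these 4 libraries alone (0.0526) or when any library other than DKO replicate 2 was omitted (0.0534 to 0.0914). Hdac7 rose by 0.18 ± 0.05 (adjusted p = 0.042), and it no longer passed under 9 of 15 alternatives, among them the removal of any of the 6 libraries (adjusted p from 0.0531 to 0.161). Hdac1 was at -0.13 ± 0.05 (adjusted p = 0.111) and Hdac10 at -0.30 ± 0.13 (0.125), without overlap of the libraries. The Hdac10 difference was -0.48 and passed with Tcf1 KO replicate 2 omitted (adjusted p = 0.0351), and it was -0.12 with Tcf1 KO replicate 1 omitted (0.432). Hdac3 and Hdac8 overlapped between the mutants, at -0.04 ± 0.06 and -0.05 ± 0.08. The comparisons with WT share the WT libraries and those with Tcf1 KO share the Tcf1 KO libraries, so they are not independent of each other.

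**Figure D2:**
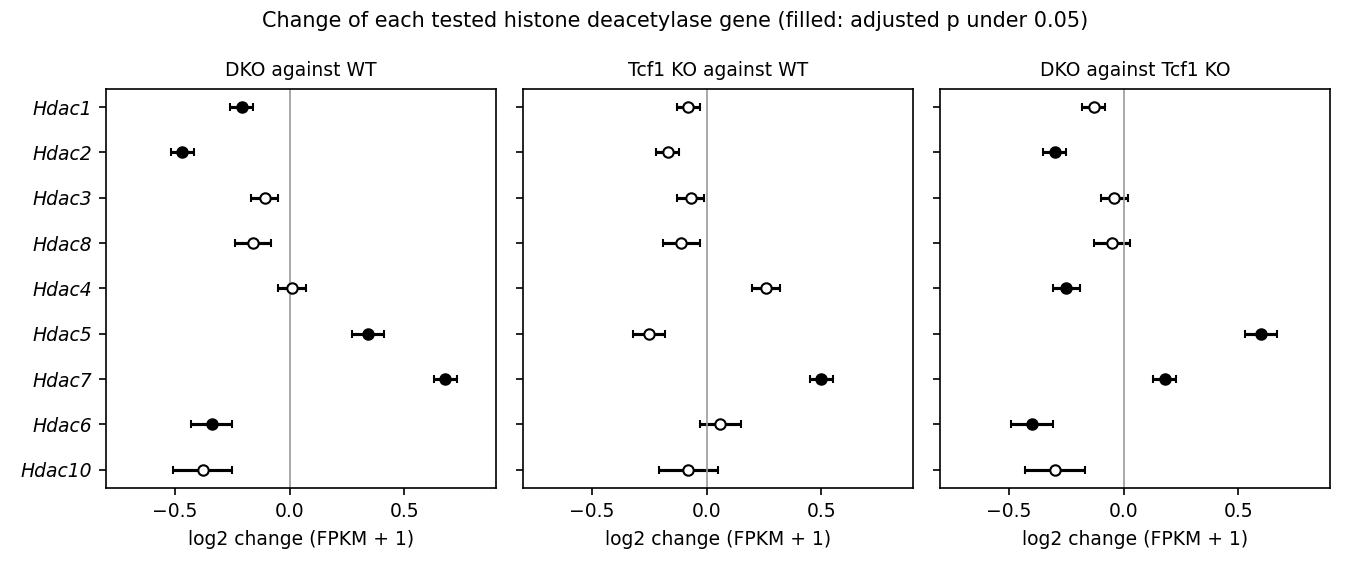
Log2 change of each of the 9 tested members (points) with its standard error (bars) for the 3 comparisons (DKO over WT, Tcf1 KO over WT, and DKO over Tcf1 KO), on the log2(FPKM + 1) scale; filled points passed adjusted p under 0.05. Hdac7 is filled in all 3 panels, and Hdac5 lies at 0.34 in DKO and -0.25 in Tcf1 KO against WT.

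Several patterns stood side by side in the family. By library values without overlap, Hdac7 was highest in DKO, then in Tcf1 KO and WT, and Hdac1 and Hdac2 had the opposite order. Not every step passed the test: neither of the steps beside Tcf1 KO passed for Hdac1, and Tcf1 KO against WT did not for Hdac2. Such an upward order was present in 13.2% and such a downward order in 18.2% of all tested genes. Hdac5 and Hdac4 were placed oppositely in Tcf1 KO by library values: the ratio of Hdac5 to Hdac4 was 1.68 and 1.45 in DKO, 0.81 and 0.87 in Tcf1 KO, and 1.21 and 1.25 in WT. Neither gene passed the test in Tcf1 KO against WT (limma adjusted p = 0.127 for Hdac5 and 0.0762 for Hdac4). Libraries of these 2 genotypes did not overlap for 55.8% of all tested genes. For Hdac6 and Hdac10 the DKO libraries lay below the other 4, which overlapped. Hdac10 did not pass the test in DKO against WT (limma adjusted p = 0.0557) or against Tcf1 KO (0.125). The share of all tested genes with either of these last patterns was not counted.

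Summed over the class, class I genes held 170.4 and 168.6 FPKM in DKO, 189.2 and 186.9 FPKM in Tcf1 KO, and 203.3 and 202.0 FPKM in WT. The class IIa genes held 245.5 and 253.6 FPKM in DKO, 219.8 and 218.4 FPKM in Tcf1 KO, and 160.8 and 170.4 FPKM in WT. Class IIa genes therefore made up 57.5% and 58.5% of the family's FPKM in DKO, 51.6% and 52.1% in Tcf1 KO, and 42.4% and 44.0% in WT. Most of the class IIa sum was Hdac7 and most of the class I sum was Hdac1. The class I sum was lower in DKO through falls of similar size in FPKM in 2 genes. Hdac1 had means of 106 FPKM in WT and 91.4 FPKM in DKO, and Hdac2 had 52.4 and 37.5 FPKM. The sum over all 10 members was 427.3 and 433.6 FPKM in DKO, 425.8 and 418.8 FPKM in Tcf1 KO, and 379.2 and 387.2 FPKM in WT. These sums are descriptions of transcript levels and were not tested.

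**Figure D3:**
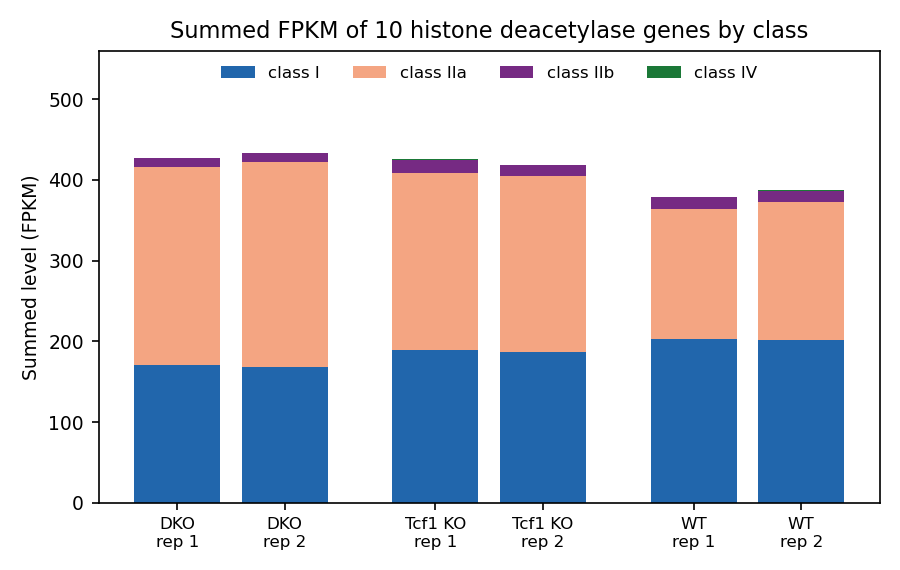
Summed FPKM of the 10 members in each library, stacked by class (class I at the bottom, then IIa, IIb and IV), for DKO, Tcf1 KO and WT from left to right. The class IIa part is 245.5 and 253.6 FPKM in DKO and 160.8 and 170.4 FPKM in WT, while the class I part is smaller in DKO than in WT.

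Genes with the most similar pattern were sought by the Euclidean distance between log2(FPKM + 1) values centred per gene over the 6 libraries, among 5942 tested genes (provisional gene models left out). Nearest to Hdac7 were Nedd4 (distance 0.111), Hpgds (0.127) and Fam65a (0.137), where the median gene was at 0.81. Nedd4, a ubiquitin ligase, had 55.00 and 55.20 FPKM in DKO, 47.58 and 46.50 FPKM in Tcf1 KO, and 33.41 and 32.76 FPKM in WT. Nearest to Hdac5 were Lpcat4 (0.145), Bcl2 (0.153) and Enpp1 (0.166), with a median of 0.74. Bcl2, which protects lymphocytes from apoptosis, had 69.95 and 64.11 FPKM in DKO, 45.12 and 47.61 FPKM in Tcf1 KO, and 50.74 and 49.67 FPKM in WT. Nearest to Hdac2 were Cinp (0.026), Ebna1bp2 (0.047) and Myg1 (0.051), with a median of 0.58. Cinp, a partner of cell cycle kinases, had 8.33 and 8.37 FPKM in DKO, 10.58 and 10.59 FPKM in Tcf1 KO, and 11.70 and 12.63 FPKM in WT.

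**Figure D4:**
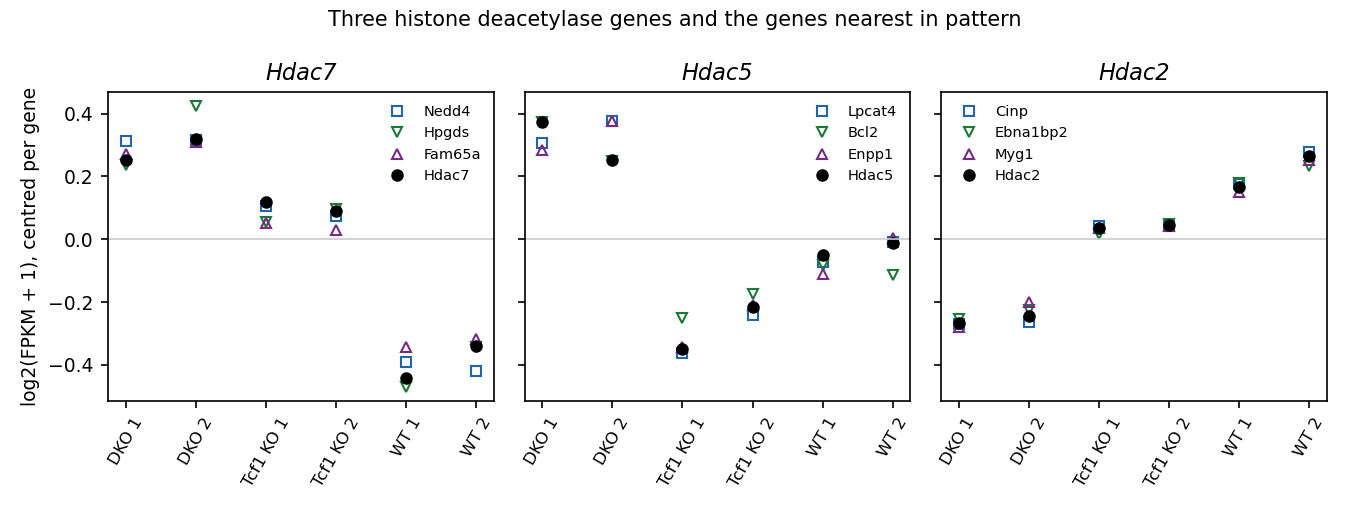
Values of Hdac7, Hdac5 and Hdac2 (filled circles) and of the 3 genes nearest to each (open symbols) in the 6 libraries, as log2(FPKM + 1) centred on the gene's mean. Within a panel the symbols lie close together in every library because the genes were picked by their distance over these 6 libraries. Hdac5 and its neighbours are lowest in Tcf1 KO, an order that this choice brings with it.

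The complexes that carry the class I enzymes were described from textbook lists. The counts of all lists in DKO against WT are to be read beside the 49.5% of all tested genes that were called, 21.7% as higher and 27.8% as lower. Of 10 listed and tested genes of the NuRD complex, which joins Hdac1 and Hdac2 to a nucleosome remodeller, 2 were higher and 4 lower in DKO against WT (6 of 10 called, beside 49.5% of all tested genes), with a median of -0.18. Chd4, the remodeller and the most abundant of the list, was at 126 ± 0.184 FPKM in DKO and 153 ± 0.75 FPKM in WT and fell by 0.28 ± 0.04 (adjusted p = 0.0025). Cdk2ap1 (-0.96 ± 0.11), the methyl-CpG binding protein gene Mbd2 (-0.35 ± 0.07) and Mta1 (-0.29 ± 0.08) also fell, whereas Gatad2b (0.33 ± 0.07) and Mta3 (0.24 ± 0.07) rose. With WT replicate 2 omitted Gatad2b (adjusted p = 0.058) and Mta1 (0.119) no longer passed, and with WT replicate 1 omitted Mta1 missed again (0.0897), while with DKO replicate 1 omitted the Mta1 change was -0.19. Mta3 missed when any library other than DKO replicate 1 was omitted (0.0598 to 0.156), under quantile scaling (0.0626) and under 3 further alternatives.

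Of 7 tested Sin3 complex genes 3 rose and 1 fell in DKO, near the 49.5% called over all genes. Sin3a and Sin3b themselves are later in the alphabet than the table reaches and were not analysed. Arid4a, which encodes a chromatin-binding subunit, had 43.8 ± 3.95 FPKM in DKO and 24.1 ± 2.3 FPKM in WT (0.84 ± 0.09, adjusted p = 0.00108). Ing1 (0.37 ± 0.08), the most abundant of these genes in WT, and Fam60a (0.31 ± 0.06) rose and Brms1l (-0.28 ± 0.07) fell. With WT replicate 2 omitted Ing1 (adjusted p = 0.0645) and Brms1l (0.0661) no longer passed, with WT replicate 1 omitted Fam60a (0.0677) and Brms1l (0.114) missed, and Brms1l also missed with DKO replicate 1 omitted (0.0506). The scaffold of the Hdac3 complex, Ncor1, was at 72.6 ± 0.813 FPKM in DKO and 74.6 ± 2.28 FPKM in WT (-0.04 ± 0.04, adjusted p = 0.517). Gps2, of the same complex, was the 1 of 3 tested genes that rose (0.34 ± 0.08, adjusted p = 0.018), which no longer passed with DKO replicate 1 (0.0614) or WT replicate 2 (0.0564) omitted.

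Of 7 tested genes of the CoREST, MiDAC and MIER complexes 2 rose and 1 fell in DKO, again near that 49.5%. Mier1 (0.42 ± 0.09) and Hmg20b (0.24 ± 0.06) rose and Elmsan1 (-0.35 ± 0.09) fell, while the demethylase gene Kdm1a was at 43.6 ± 0.82 FPKM in DKO and 41.4 ± 0.12 FPKM in WT (0.07 ± 0.05, adjusted p = 0.234). Mier1 no longer passed with WT replicate 1 (adjusted p = 0.0587) or WT replicate 2 (0.0772) omitted, and Hmg20b missed with WT replicate 2 omitted (0.097). Elmsan1 missed with WT replicate 1 (0.0786), WT replicate 2 (0.107) or DKO replicate 1 (0.076) omitted.

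The partners and kinases of class IIa proteins had 5 higher and 0 lower of 9 tested in DKO, beside 21.7% higher and 27.8% lower over all tested genes, with a median of 0.36 beside -0.03 over all. Mef2b, of the MEF2 factors that class IIa proteins bind, had 3.02 ± 0.615 FPKM in DKO and 0.49 ± 0.113 FPKM in WT (1.42 ± 0.16, adjusted p = 0.00119), and the log2 change of this low gene was 2.40 with a pseudocount of 0.1. Mef2a (0.51 ± 0.08) and the calcium/calmodulin-dependent kinase gene Camk2g (0.47 ± 0.05) rose as well. Mef2d, the most abundant of the list, was at 112 ± 10.7 FPKM in DKO and 95.2 ± 6.63 FPKM in WT (0.23 ± 0.08, adjusted p = 0.0655). The Mef2d difference passed under quantile scaling (0.0284) and with DKO replicate 2 omitted (0.0226), and it was 0.13 with DKO replicate 1 omitted (0.214).

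Enzymes that act opposite to deacetylases were listed too. Of 12 histone acetyltransferase genes 6 rose and 2 fell in DKO against WT, beside 21.7% and 27.8% over all tested genes, with a median of 0.28. Ncoa3 (0.99 ± 0.06), Kat6b (0.55 ± 0.06) and Kat2b (0.52 ± 0.07) had the largest rises. Hat1, which acetylates newly made histones, fell by 0.70 ± 0.05 (adjusted p = 0.000274), and Kat2a, the most abundant of the list in WT, fell by 0.21 ± 0.05 (adjusted p = 0.0158). Kat2a no longer passed under median scaling (0.0745), or with WT replicate 1 (0.0998) or WT replicate 2 (0.0649) omitted. Of 7 genes of bromodomain proteins, which bind acetylated lysines, 3 rose and 0 fell, where 49.5% of all tested genes were called in either direction. Brd2 was at 148 ± 4.62 FPKM in DKO and 111 ± 0.629 FPKM in WT (0.41 ± 0.04, adjusted p = 0.00106). Brd1 rose by 0.24 ± 0.07, and it no longer passed when any library other than DKO replicate 2 was omitted (0.0525 to 0.15) or in the fit of 4 libraries (0.0524).

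Of 6 tested cofactors of Tcf and Lef proteins (49.5% called over all genes) 1 rose, Bcl9l (1.01 ± 0.10, adjusted p = 0.000667), and 1 fell, Bcl9 (-0.69 ± 0.15, adjusted p = 0.0133), which no longer passed with DKO replicate 1 (0.0511) or WT replicate 2 (0.0838) omitted. Aes, a short Groucho family protein and the most abundant of these tested genes, was at 337 ± 2.35 FPKM in DKO and 364 ± 7.44 FPKM in WT (-0.11 ± 0.04, adjusted p = 0.0806). Tle1, Tle2, Tle3, Tle4 and Pygo2 are on this list but later in the alphabet than the table reaches, and were not analysed. With the filter on low values dropped, which raises the number of genes tested, Gatad2b, Mta3, Mbd2, Mta1, Ing1, Gps2, Mier1, Elmsan1, Brd1 and Bcl9 no longer passed in DKO against WT (adjusted p from 0.053 to 0.163). In Tcf1 KO against WT no gene of the 8 lists from NuRD to these cofactors passed the test. Only 2.09% of all tested genes were called in that comparison, so the absence of calls is near the background. The list medians lay between -0.06 and 0.10.

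**Figure D5:**
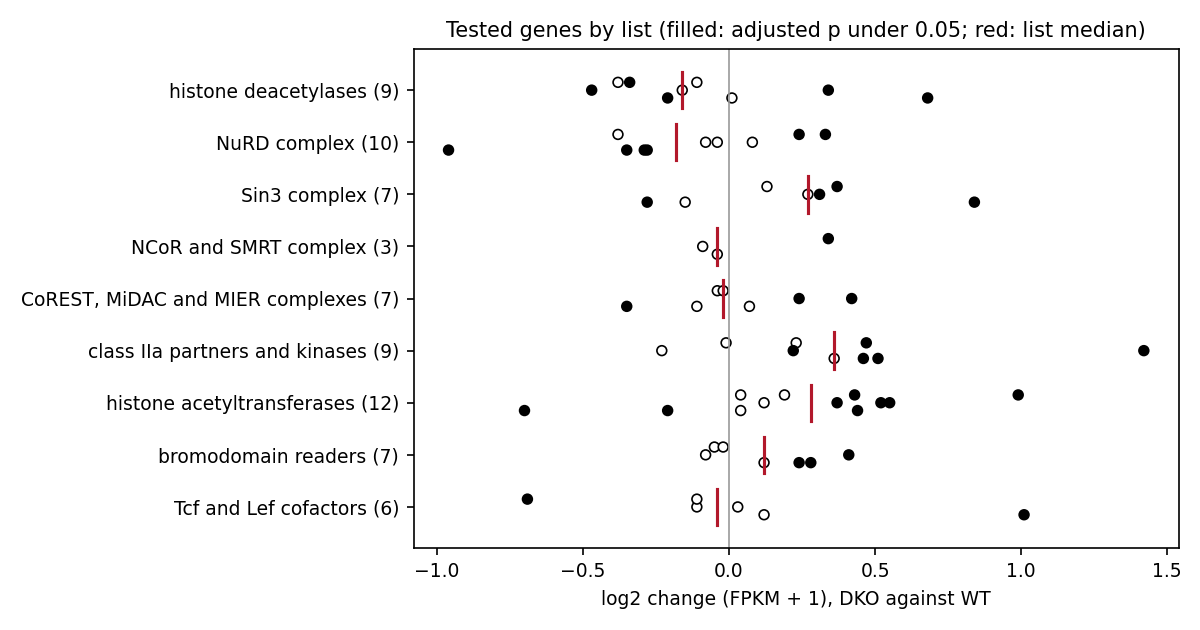
Log2 change in DKO against WT of the tested genes of each list (points, on the log2(FPKM + 1) scale), with the number tested in brackets and the list median as a red line; filled points passed adjusted p under 0.05. The histone deacetylases spread to both sides with a median of -0.16, while the class IIa partners have a median of 0.36.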

How the data were processed

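The unit used is FPKM, which the authors deposited as 1 column per library. The submitters' processing notes list RSEM 1.2.21, FastQC and mm9; the aligner and the annotation were not given in the sources used here. Reads that fit several genes are shared out by estimate in RSEM, so values of paralogs such as Hdac1 and Hdac2 may rest partly on that estimate. How far they do was not examined. The table lists 16383 genes in alphabetical order up to Pcsk5, so list genes later in the alphabet, Tcf7 and the sirtuins among them, are not analysed here, and p-values are relative to the listed genes. 13 symbols turned into dates were restored from their RefSeq accession.

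The fit kept the 6761 genes that reached 1 FPKM in 2 or more of the 6 libraries. With a pseudocount of 1, log2 values of all 6 libraries entered 1 model in limma 3.58.1 (R 4.3.3), with a term for genotype, a variance trend and 3 residual degrees of freedom. Because of the pseudocount, log2 changes of low genes are too small. The script was tested on simulated data with log2 changes larger than any of the members' changes, so the test does not cover changes of their size.

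Depth was approximated as the number of fragments that best made low values of transcripts of 400 to 1000 bases whole multiples of 1 fragment, with a fragment length of 200 bases assumed; 65.1% to 74.1% of the values then lay within 0.25 of a whole number, beside 50% for evenly spread values. These depths are rough, and no count test was run.

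Members and lists were chosen with earlier results of these data known. Genes outside the family were named by rule: per list and direction, up to 3 with the largest change past the threshold in a comparison with WT and the most abundant in WT; and the 3 genes nearest in pattern to each of the 3 members with the largest moderated t. Some genes that this rule or the marker lists hold are not reported here. Alternatives were other pseudocounts, filters and scalings, no trend, 4-library fits, the replicate number as a block, and leaving out each library.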

Additional observations from a re-analysis of the deposited data

How the results depend on the processing

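Of 405 member values recomputed under 15 alternatives, 357 kept their direction and side of the threshold, 36 no longer passed and 5 newly passed. Only the members called in the main fit, 5, 1 and 5 in the 3 comparisons, could lose a call. Of these calls, Hdac2 and Hdac7 in DKO against WT and Hdac2 and Hdac5 in DKO against Tcf1 KO held under all 15 alternatives. The other calls did not. A further 7 values changed sign, none of which passed in either version. These were Hdac4 in DKO against WT without DKO replicate 2 (-0.03), Hdac10 in Tcf1 KO against WT without Tcf1 KO replicate 2 (0.10, and -0.26 with replicate 1 omitted), Hdac3 in DKO against Tcf1 KO under median scaling (0.01) and without DKO replicate 1 (0.02, and -0.10 without DKO replicate 2), and Hdac8 in that comparison under median scaling (0.00), quantile scaling (0.05) and without Tcf1 KO replicate 2 (0.02, and -0.11 without Tcf1 KO replicate 1). Lef1 in Tcf1 KO against WT was -0.03 without WT replicate 2 and 0.14 without WT replicate 1, and Ncor1 in DKO against WT was 0.02 under median scaling.

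Without the filter on low values 16383 genes were tested, and the members called numbered 2 in DKO against WT, 0 in Tcf1 KO against WT and 3 in DKO against Tcf1 KO, instead of 5, 1 and 5; the genes called numbered 69 instead of 141 in Tcf1 KO against WT and 1542 instead of 2599 in DKO against Tcf1 KO. In the fit of 4 libraries 3 members passed in DKO against Tcf1 KO. Leaving out a library gave 2 to 6, 0 to 1 and 2 to 4 members called in the 3 comparisons, and 2066 to 3115, 12 to 177 and 1583 to 2275 genes. The gene counts moved by more than 1.5 times with WT replicate 1 (2219) or WT replicate 2 (2066) omitted in DKO against WT, with Tcf1 KO replicate 2 (12), WT replicate 1 (12) or WT replicate 2 (13) omitted in Tcf1 KO against WT, and with Tcf1 KO replicate 1 (1583) or replicate 2 (1602) omitted in DKO against Tcf1 KO. Where a genotype is left with 1 library, that library is assumed to vary like the others. Of 34 calls of list genes, 18 held whichever library was left out.

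The labels do not say whether same-numbered libraries were handled together. Deviations of same-numbered libraries correlated at 0.147 (DKO and Tcf1 KO), 0.154 (DKO and WT) and 0.045 (Tcf1 KO and WT) over 6761 genes, which does not settle it. A block for the replicate number gave 3571 instead of 3345 genes called in DKO against WT. It gave 151 instead of 141 in Tcf1 KO against WT, and 2812 instead of 2599 in DKO against Tcf1 KO. With the replicate number as a block 6, 1 and 5 members passed, Hdac10 being added in DKO against WT (limma adjusted p = 0.0261), and Mef2d passed in that comparison (0.0198). No read counts were at hand, so no counting error stands beside the values, which limits Hdac11 most. The causes of these changes were not tested.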
